A study of Mus musculus with 12 samples.

Results

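The NADPH supply genes are 10 genes that encode enzymes of the pentose phosphate pathway, or enzymes outside it that hand electrons to NADP. They were chosen by name: G6pdx, Pgls, Pgd, Rpia, Rpe, Tkt and Taldo1 of the pentose phosphate pathway, the malic enzyme gene Me1, and the isocitrate dehydrogenase genes Idh1 and Idh2. Every array probe that the platform annotation assigns to a member was taken, which gave 11 probes of 8 genes, out of 23863 probes and 12344 named genes in the whole table. For G6pdx and Pgd the annotation names no probe. One otherwise unnamed probe for each carries its symbol in the gene table of the study, which lists probes picked for a difference on these same 12 arrays, so the values of G6pdx and Pgd are given as a description, with no test and outside every count.

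RNA came from kidneys of mice backcrossed to C57BL/6J, at 15 weeks of age, an early stage of cystic disease, and was hybridised to Illumina MouseWG-6 v2 arrays, 1 array for each of 12 mice. The Fh1-/-Hif-1α-/- group (4 mice) carried conditional Fh1 and Hif-1α alleles on both chromosomes together with the Ksp-Cre transgene. The Fh1-/- group (4 mice) carried the conditional Fh1 alleles and Ksp-Cre. The 4 control mice were littermates that had no Ksp-Cre, or had it beside an allele that Cre cannot delete. Ksp-Cre is driven by the promoter of kidney specific cadherin, which is active in tubule cells, so cells outside the tubules keep both genes. In the paper's stained sections of somewhat older kidneys, some of the tubules kept Fh1 protein too. No array holds a kidney that lost Hif-1α alone. The labels call the tissue of all 12 mice cysts, controls included, whereas the methods speak of kidneys. Fh1 encodes fumarate hydratase of the tricarboxylic acid cycle, and Hif-1α is the oxygen-regulated subunit of a hypoxia-induced transcription factor.

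NADPH is the electron donor for reductive synthesis and for the enzymes that regenerate reduced glutathione and thioredoxin. The oxidative branch of the pentose phosphate pathway makes it in the cytosol at the glucose-6-phosphate dehydrogenase and 6-phosphogluconate dehydrogenase steps, and the non-oxidative branch exchanges carbon between pentose phosphates and glycolysis. Malic enzyme and the NADP-dependent isocitrate dehydrogenases of the cytosol and mitochondria, together with folate enzymes, are the other main sources. Several of these genes, in the oxidative and the non-oxidative branch, are textbook targets of the transcription factor Nrf2 (gene Nfe2l2), which binds the antioxidant response element.

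In Fh1-/-Hif-1α-/- kidneys, the signal of Tkt was higher than in control kidneys, and the call was kept whichever array was left out. Of the 8 genes tested, Tkt and Pgls rose, Idh2 fell and 5 were not called (limma, adjusted p under 0.05), where 16.6% of all probes on the arrays were called. The calls of Pgls and Idh2 were less stable, for of the 12 fits that each left out an array, 1 kept that of Pgls and 6 kept that of Idh2. In Fh1-/- against control kidneys 0 of the 8 were called by limma, where 4.97% of all probes were, and 1 of the 8 had an unadjusted p under 0.05. G6pdx and Pgd, whose probes were found through a table chosen for a difference on these arrays, are described without a test. Their levels stood in the order Fh1-/-Hif-1α-/-, Fh1-/-, control, from the highest to the lowest, with no overlap between any pair of groups. A table so chosen favours such probes. Of all probes, 19.4% did not overlap between Fh1-/-Hif-1α-/- and control, 14.2% between Fh1-/- and control, and 4.85% between the knockout groups.

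The promoters of 4 members are shown because the antioxidant response element is the element that links this pathway to Nrf2. Each is the RefSeq stretch (GRCm38.p6) of 250 bases before to 50 bases after an annotated start, written on the strand of the gene, and capitals mark the core of the element, TGACNNNGC, on either strand. Matches were found in 3 of 13 promoters of the 10 genes, which were those of G6pdx and Me1 and a second start of Pgd, and in 12.4% of all 32851 promoters of this length. A match of so short a motif is a description and not a binding site, and no match says only that these letters are not in the window. Tkt is shown as the member that rose most among those tested.
G6pdx, chrX:74428831-74429130, minus strand: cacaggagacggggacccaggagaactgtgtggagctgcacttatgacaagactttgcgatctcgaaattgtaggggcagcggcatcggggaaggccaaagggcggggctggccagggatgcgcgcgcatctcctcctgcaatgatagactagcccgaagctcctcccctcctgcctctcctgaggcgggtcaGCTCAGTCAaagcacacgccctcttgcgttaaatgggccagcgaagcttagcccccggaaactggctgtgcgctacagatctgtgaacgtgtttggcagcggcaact
Pgd, second start, chr4:149166033-149166332, minus strand: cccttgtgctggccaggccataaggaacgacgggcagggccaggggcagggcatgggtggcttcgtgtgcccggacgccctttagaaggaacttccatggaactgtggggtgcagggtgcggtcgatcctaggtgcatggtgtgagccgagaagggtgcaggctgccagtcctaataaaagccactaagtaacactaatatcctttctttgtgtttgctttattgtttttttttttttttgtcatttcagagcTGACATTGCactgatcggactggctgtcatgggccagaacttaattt
Me1, first start, chr9:86695865-86696164, minus strand: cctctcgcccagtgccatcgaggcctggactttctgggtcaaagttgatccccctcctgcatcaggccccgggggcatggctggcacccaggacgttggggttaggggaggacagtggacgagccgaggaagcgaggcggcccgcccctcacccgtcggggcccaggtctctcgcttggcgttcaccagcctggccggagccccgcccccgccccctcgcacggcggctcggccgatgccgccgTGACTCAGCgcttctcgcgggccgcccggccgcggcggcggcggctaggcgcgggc
Tkt, chr14:30548881-30549180, plus strand: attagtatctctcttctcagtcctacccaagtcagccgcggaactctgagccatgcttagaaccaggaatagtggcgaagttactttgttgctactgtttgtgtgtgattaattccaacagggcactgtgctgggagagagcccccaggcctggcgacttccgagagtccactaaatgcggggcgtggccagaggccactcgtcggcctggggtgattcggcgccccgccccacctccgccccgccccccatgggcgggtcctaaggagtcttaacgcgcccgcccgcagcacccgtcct
In G6pdx the match lies on the reverse strand as GCTCAGTCA, its first base at -57 from the start. In Me1 it lies on the forward strand at -6. In Pgd it lies on the forward strand and begins 3 bases after the start base, within the transcribed part of the window.

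All values are log2 signals, so that 1 unit is a change of 2-fold. A level depends on the probe, and levels of different probes are not set against each other. Differences were tested with limma across all 23863 probes, the p-values were adjusted over all of them by the Benjamini-Hochberg method, and a probe was called at an adjusted p under 0.05. Beside this, an exact two-sided permutation test over the 4 arrays against 4 is given for single genes, whose smallest possible p is 0.029. The brightest probe stands for a gene. In the whole kidney, fewer cells of a type and less RNA per cell cannot be told apart.

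The arrays fell into 2 sets that cross the genotypes. The 1st percentile of signal was 7.46 to 7.54 on the arrays of replicates 1 and 2 and 7.34 to 7.40 on those of replicates 3 and 4, and a principal component with 18% of the variance parted the sets, which the labels do not name. Xist, transcribed from the inactive X chromosome, was high on 5 of the 12 arrays and not evenly over the groups. These were replicates 2 and 3 of Fh1-/-Hif-1α-/-, replicates 1 and 3 of Fh1-/-, and replicate 4 alone of the controls. Control replicate 4 read 13.28, and the other controls read 7.16 to 7.43. The brighter Fh1 probe averaged 13.85 in Fh1-/-Hif-1α-/-, 14.12 in Fh1-/- and 14.25 in control kidneys, a difference called in Fh1-/-Hif-1α-/- kidneys against control (-0.40, adjusted p = 0.014) and not called in Fh1-/- kidneys (-0.14, adjusted p = 0.45). The 2 Hif1a probes went opposite ways in Fh1-/-Hif-1α-/- kidneys against control (0.85 and -0.19). The paper reports recombination of the alleles by PCR of kidney DNA. By quantitative PCR of the RNA used for the arrays, it reports less Fh1 transcript in both knockout groups and less Hif-1α transcript in Fh1-/-Hif-1α-/- kidneys. Where the probes of Fh1 and Hif1a lie relative to the deleted exons is not given in the sources used here.

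**Figure D1:**
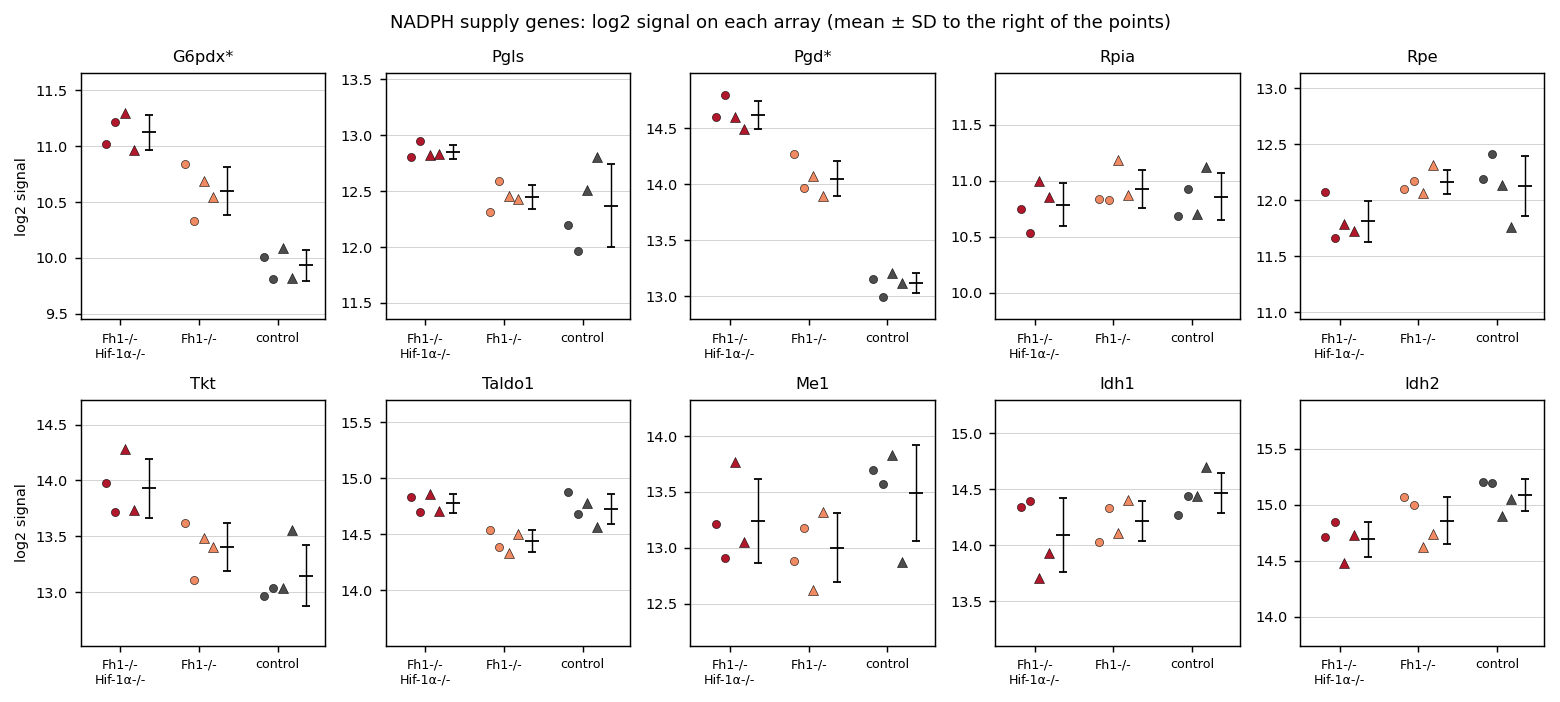
Log2 signal of the 10 NADPH supply genes on each of the 12 arrays by genotype, with the group mean and SD at the right of the points, circles for replicates 1 and 2 and triangles for replicates 3 and 4, and a separate y axis for each gene. Asterisks mark G6pdx and Pgd, whose probes were named only by a table chosen for a difference on these arrays, which favours groups that do not overlap. Pgd was at 14.49 or above in Fh1-/-Hif-1α-/-, at 13.90 to 14.27 in Fh1-/- and at 13.21 or below in control kidneys.

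In the oxidative branch, G6pdx (GRCm38.p6, chromosome X, 74409483 to 74428880) encodes glucose-6-phosphate dehydrogenase, the committed step of the pathway and its first source of NADPH. Its log2 signal was 11.02, 11.22, 11.29 and 10.96 in Fh1-/-Hif-1α-/- kidneys, 10.84, 10.33, 10.69 and 10.55 in Fh1-/- kidneys and 10.01, 9.81, 10.09 and 9.83 in control kidneys. Every array of a genotype lay apart from those of the others, on a probe picked for a difference on these arrays. The means were 11.12 ± 0.16, 10.60 ± 0.21 and 9.93 ± 0.14 in the same order (SD, n = 4 each), a difference from control of 1.19 or 2.28-fold in Fh1-/-Hif-1α-/- and of 0.67 or 1.59-fold in Fh1-/- kidneys. Between Fh1-/-Hif-1α-/- and Fh1-/- kidneys the difference was 0.52. The gene is X-linked and Xist differed between arrays. With Xist as a covariate the differences from control were 1.15 in Fh1-/-Hif-1α-/- and 0.63 in Fh1-/- kidneys. Between the knockout groups the difference was then 0.52. These values come from the arrays on which the probe was picked, so they describe the difference and cannot check it.

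Pgd (chromosome 4, 149149991 to 149166705) encodes 6-phosphogluconate dehydrogenase, the second step that yields NADPH. Its signal was 14.60, 14.80, 14.60 and 14.49 in Fh1-/-Hif-1α-/- kidneys, 14.27, 13.97, 14.07 and 13.90 in Fh1-/- kidneys and 13.15, 12.99, 13.21 and 13.12 in control kidneys. The groups were again apart, on a probe picked in the same way. The gap between Fh1-/- and control kidneys was wider than the spread within either, which such picking favours. Pgd averaged 14.62 ± 0.13, 14.05 ± 0.16 and 13.12 ± 0.09 (SD, n = 4 each), so that it stood 1.51 (2.84-fold) above control in Fh1-/-Hif-1α-/- kidneys, 0.93 (1.91-fold) above control in Fh1-/- kidneys, and 0.57 higher in Fh1-/-Hif-1α-/- than in Fh1-/- kidneys. Within replicates 1 and 2 the difference of Fh1-/-Hif-1α-/- from control was 1.62, and within replicates 3 and 4 it was 1.39. For G6pdx these were 1.21 and 1.17. Both probes were picked for a difference on these same arrays. Values within each set of arrays therefore describe that difference and cannot check it.

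Pgls (chromosome 8, 71592184 to 71596267) encodes 6-phosphogluconolactonase, which hydrolyses the lactone between these dehydrogenases and makes no NADPH itself. Its brighter probe read 12.81, 12.95, 12.82 and 12.83 in Fh1-/-Hif-1α-/- kidneys, 12.32, 12.59, 12.46 and 12.43 in Fh1-/- kidneys and 12.20, 11.96, 12.51 and 12.81 in control kidneys. The Fh1-/-Hif-1α-/- arrays agreed closely, while control replicate 4 reached their level. Pgls was higher in Fh1-/-Hif-1α-/- than in control kidneys by 0.48 ± 0.15 (SE, limma adjusted p = 0.046, exact permutation p = 0.057). The call was lost in all but 1 of the 12 fits that left out an array, the exception being the fit without control replicate 4. Of 15 other settings 7 kept the call, and Xist as a covariate was among those that lost it. Within replicates 1 and 2 the difference was 0.80 and within replicates 3 and 4 it was 0.17 (adjusted p = 0.02 and 0.63). In Fh1-/- against control kidneys the difference was 0.08 (95% interval -0.25 to 0.40, adjusted p = 0.82), and between Fh1-/-Hif-1α-/- and Fh1-/- kidneys it was 0.40 (adjusted p = 0.41), although these arrays did not overlap. The dimmer Pgls probe read 7.95, 7.75, 8.46 and 8.42 in Fh1-/-Hif-1α-/-, 7.66, 7.74, 8.05 and 8.33 in Fh1-/- and 7.80, 7.72, 8.37 and 8.33 in control kidneys. It was higher on the arrays of replicates 3 and 4 in every group and was not called in any comparison.

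The non-oxidative branch differed from gene to gene. Tkt (chromosome 14, 30549131 to 30574724) encodes transketolase, which moves 2-carbon units between sugar phosphates and links the pathway to glycolysis. Its brightest probe was at 13.98, 13.72, 14.28 and 13.74 in Fh1-/-Hif-1α-/- kidneys, 13.62, 13.11, 13.49 and 13.41 in Fh1-/- kidneys and 12.97, 13.04, 13.04 and 13.55 in control kidneys. All Fh1-/-Hif-1α-/- arrays lay above every array of the other groups, and control replicate 4 lay well above the other controls and among the Fh1-/- arrays. Tkt rose by 0.78 ± 0.16 or 1.72-fold in Fh1-/-Hif-1α-/- against control kidneys (limma adjusted p = 0.0071, exact permutation p = 0.029), and the call was kept in all 12 fits that left out 1 array, with differences of 0.66 to 0.91. Within replicates 1 and 2 the difference was 0.85 (adjusted p = 0.03), and within replicates 3 and 4 it was 0.71 (adjusted p = 0.22). In Fh1-/- against control kidneys the difference was 0.26 (95% interval -0.10 to 0.61, adjusted p = 0.40). It was 0.52 between Fh1-/-Hif-1α-/- and Fh1-/- kidneys (0.17 to 0.88, adjusted p = 0.28, exact permutation p = 0.029), which is not a call across all probes.

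Tkt has 2 further, dim probes. The second read 8.98, 9.29, 9.08 and 8.65 in Fh1-/-Hif-1α-/- kidneys, 8.84, 8.82, 8.63 and 8.32 in Fh1-/- kidneys and 7.94, 8.14, 7.93 and 7.92 in control kidneys, so that both knockout groups lay above control. It was called higher in Fh1-/-Hif-1α-/- (1.02, adjusted p = 0.00087) and in Fh1-/- kidneys (0.67, adjusted p = 0.026). The call in Fh1-/- kidneys was kept in 7 of the 12 fits that left out an array. The third probe read 8.44, 8.67, 8.20 and 7.88 in Fh1-/-Hif-1α-/- kidneys, 8.42, 8.30, 8.13 and 7.61 in Fh1-/- kidneys and 7.71, 7.67, 7.49 and 7.64 in control kidneys. It was called in Fh1-/-Hif-1α-/- (0.67, adjusted p = 0.029) and not in Fh1-/- kidneys (0.49, adjusted p = 0.15). In Fh1-/- kidneys the third probe became a call with the array set as a term (0.49, adjusted p = 0.047) or without Fh1-/- replicate 4 (0.66, adjusted p = 0.045). All 3 probes were called higher in Fh1-/-Hif-1α-/- kidneys.

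**Figure D2:**
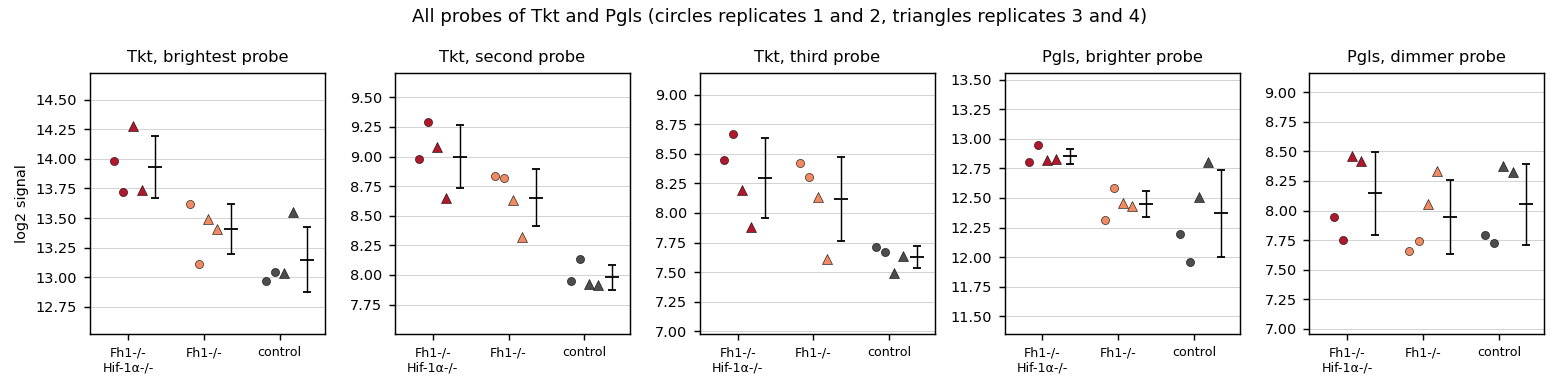
Log2 signal of the 3 Tkt and 2 Pgls probes on each array by genotype, with group mean and SD (n = 4), circles for replicates 1 and 2 and triangles for replicates 3 and 4. All 3 Tkt probes are higher in Fh1-/-Hif-1α-/- than in control kidneys (0.78, 1.02 and 0.67), control replicate 4 stands apart only on the brightest, and the dimmer Pgls probe splits by replicate number and not by genotype.

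Taldo1 (chromosome 7, 141392160 to 141402976) encodes transaldolase, the partner of transketolase in the same exchange. It read 14.83, 14.70, 14.86 and 14.71 in Fh1-/-Hif-1α-/- kidneys, 14.54, 14.38, 14.33 and 14.50 in Fh1-/- kidneys and 14.88, 14.68, 14.78 and 14.56 in control kidneys. The Fh1-/- arrays lay below all others, and the remaining groups overlapped. Against control the difference was -0.29 in Fh1-/- kidneys (95% interval -0.48 to -0.09, adjusted p = 0.083, exact permutation p = 0.029), which became a call without control replicate 4 (-0.34, adjusted p = 0.045), and 0.05 in Fh1-/-Hif-1α-/- kidneys (-0.14 to 0.24, adjusted p = 0.74). Between Fh1-/-Hif-1α-/- and Fh1-/- kidneys it was 0.34 (adjusted p = 0.18).

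Rpia, ribose-5-phosphate isomerase, and Rpe, ribulose-phosphate 3-epimerase, convert the product of the oxidative branch into the pentose phosphates that transketolase uses. Rpia was at 10.75, 10.54, 10.99 and 10.86 in Fh1-/-Hif-1α-/-, 10.83, 10.83, 11.18 and 10.87 in Fh1-/- and 10.68, 10.92, 10.70 and 11.12 in control kidneys, with all groups overlapping. Its differences were -0.07 and 0.07 against control and -0.14 between the knockout groups, and the 95% intervals together ran from -0.44 to 0.36. Rpe was at 12.07, 11.66, 11.79 and 11.73 in Fh1-/-Hif-1α-/-, 12.10, 12.17, 12.07 and 12.31 in Fh1-/- and 12.19, 12.41, 12.14 and 11.76 in control kidneys. Of the Fh1-/-Hif-1α-/- arrays 3 lay at or near the lowest control. The difference from control was -0.31 (adjusted p = 0.14) in Fh1-/-Hif-1α-/- and 0.04 (adjusted p = 0.91) in Fh1-/- kidneys, and without control replicate 4 the value in Fh1-/-Hif-1α-/- kidneys became a call (-0.43, adjusted p = 0.027).

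Outside the pentose phosphate pathway no member was called higher in any comparison. Idh2 (chromosome 7, 80094845 to 80118608) encodes the mitochondrial NADP-dependent isocitrate dehydrogenase. It read 14.71, 14.85, 14.48 and 14.73 in Fh1-/-Hif-1α-/- kidneys, 15.07, 15.00, 14.63 and 14.74 in Fh1-/- kidneys and 15.21, 15.20, 14.90 and 15.05 in control kidneys. All Fh1-/-Hif-1α-/- arrays lay below every control, and the Fh1-/- arrays overlapped both. Idh2 fell by 0.40 on the log2 scale in Fh1-/-Hif-1α-/- against control kidneys (SE 0.12, 1.32-fold, limma adjusted p = 0.039, exact permutation p = 0.029), a call kept in 6 of the 12 fits that left out an array and lost with quantile normalization (-0.22, adjusted p = 0.15), with the deposited values left unshifted (-0.36, adjusted p = 0.056) and with an ordinary test (adjusted p = 0.061). The difference was -0.42 within replicates 1 and 2 and -0.37 within replicates 3 and 4. The differences were -0.23 (adjusted p = 0.29) in Fh1-/- against control kidneys and -0.17 (adjusted p = 0.82) between the knockout groups.

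Idh1, its cytosolic counterpart, read 14.34, 14.40, 13.70 and 13.93 in Fh1-/-Hif-1α-/- kidneys, 14.03, 14.33, 14.11 and 14.41 in Fh1-/- kidneys and 14.27, 14.44, 14.44 and 14.70 in control kidneys. The groups overlapped, with replicates 3 and 4 of Fh1-/-Hif-1α-/- the lowest. The difference from control was -0.37 (adjusted p = 0.13) in Fh1-/-Hif-1α-/- and -0.25 (adjusted p = 0.40) in Fh1-/- kidneys.

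Me1, the cytosolic malic enzyme, read 13.21, 12.91, 13.77 and 13.05 in Fh1-/-Hif-1α-/- kidneys, 12.89, 13.18, 12.62 and 13.32 in Fh1-/- kidneys and 13.70, 13.57, 13.83 and 12.87 in control kidneys. It had the widest spread of the 10 genes within the control group (SD 0.43), with control replicate 4 below the other controls. Its differences were -0.25 (95% interval -0.76 to 0.25, adjusted p = 0.50) in Fh1-/-Hif-1α-/- and -0.49 (-0.99 to 0.02, adjusted p = 0.25) in Fh1-/- against control kidneys. Malic enzyme is also abundant in fat. The 9 adipocyte markers averaged highest, at 11.68, on Fh1-/-Hif-1α-/- replicate 3, which had the highest Me1 of its group (13.77). Control replicate 3, with the highest Me1 of all 12 arrays (13.83), had an adipocyte mean of 8.80. The part of fat in the Me1 signal was not tested.

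**Figure D3:**
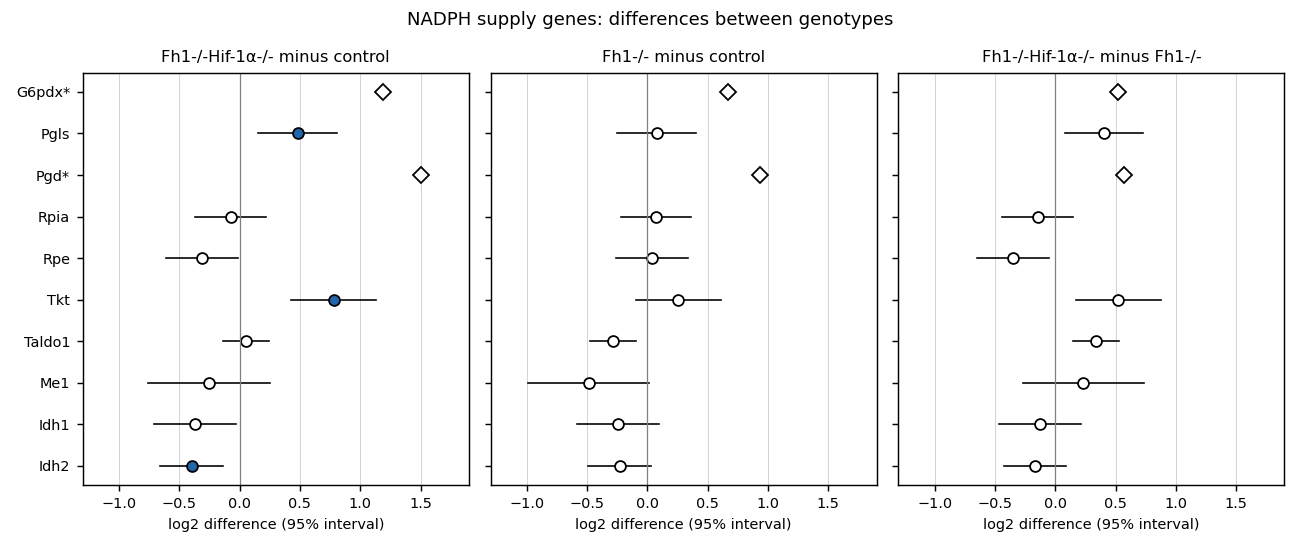
Log2 differences between genotypes for the brightest probe of each gene, as points with 95% intervals from the fit across all probes. Filled points passed an adjusted p under 0.05 (Tkt, Pgls and Idh2 in Fh1-/-Hif-1α-/- against control), and diamonds without an interval mark G6pdx and Pgd, which were not tested.

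Counted over the 8 genes, 2 rose and 1 fell in Fh1-/-Hif-1α-/- against control kidneys, where 8.62% of all probes rose and 7.97% fell, or 16.6% in either direction. An unadjusted p under 0.05 was reached by 5 of the 8 (31.3% of all probes), and the groups did not overlap for Tkt, higher, and Idh2, lower (9.81% and 9.6% of all probes, 19.4% in either direction). In Fh1-/- against control kidneys limma called 0 of 8, where 3.04% of all probes were called higher and 1.93% lower, 4.97% together. There 1 of the 8, Taldo1, had an unadjusted p under 0.05 (21.4% of all probes) and was also the only one of the 8 whose groups did not overlap, being lower (7.7% of all probes, with 6.52% higher and 14.2% in either direction). Between the knockout groups limma called 0 of 8, where 0.189% of all probes were called, 0.138% higher and 0.0503% lower. Here 4 of the 8 (Pgls, Rpe, Tkt and Taldo1) had an unadjusted p under 0.05 (8.81% of all probes), and Pgls, Tkt and Taldo1 were higher in Fh1-/-Hif-1α-/- kidneys without overlap (3% of all probes, with 1.86% lower and 4.85% in either direction). The median difference of the 8 genes from control was -0.16 in Fh1-/-Hif-1α-/- and -0.10 in Fh1-/- kidneys, beside -0.06 and -0.05 over all probes. Between the knockout groups it was 0.05, beside 0.00 over all probes. Both comparisons with control use the same 4 control arrays.

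For the 3 genes with a call, the probes of other genes that ran most alike over the 12 arrays were found by Pearson correlation, as a description of arrays that share 3 genotypes. They were Emc10 (0.93), Zbed5 (0.91) and Zkscan17 (0.91) for Pgls, and Tmem79 (0.96), Cdca4 (0.95) and Trpv6 (0.95) for Tkt. For Idh2 they were Selenot (0.95), Ufc1 (0.95) and Dlec1 (0.95).

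Genes next to the members were taken from 5 lists, of which 60 genes were measured. In Fh1-/-Hif-1α-/- against control kidneys 10 of the 60 rose and 13 fell, where 8.62% of all probes rose and 7.97% fell. In Fh1-/- against control kidneys 6 rose and 3 fell, where 3.04% of all probes rose and 1.93% fell. The counts of single lists below are to be read beside these shares. Among 11 measured neighbours of the pentose phosphate pathway in sugar phosphate metabolism, 1 rose and 3 fell in Fh1-/-Hif-1α-/- against control kidneys, and 1 fell in Fh1-/- kidneys, with medians of -0.21 and -0.20. Fbp1, the gluconeogenic fructose bisphosphatase of the proximal tubule, fell by 0.64 (adjusted p = 0.0036) in Fh1-/-Hif-1α-/- and by 0.52 (adjusted p = 0.029) in Fh1-/- kidneys. Khk, ketohexokinase of fructose breakdown, and Rbks, ribokinase, fell in Fh1-/-Hif-1α-/- kidneys, by 0.61 (adjusted p = 0.0023) for Khk and by 0.69 (adjusted p = 0.045) for Rbks. Hk1, a hexokinase that makes glucose 6-phosphate, was higher there on its brighter probe (1.04, adjusted p = 0.012), whereas its dimmer probe read -0.06 (adjusted p = 0.92). H6pd, the glucose-6-phosphate dehydrogenase of the endoplasmic reticulum, was not called, at 0.04 in Fh1-/-Hif-1α-/- and -0.20 in Fh1-/- kidneys.

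Among 13 other enzymes of NADP, NADPH or NAD, 2 rose and 3 fell in Fh1-/-Hif-1α-/- against control kidneys, and 2 rose and 1 fell in Fh1-/- kidneys. The enzymes that rose were the mitochondrial folate enzymes in both genotypes. Aldh1l2, mitochondrial 10-formyltetrahydrofolate dehydrogenase, which yields NADPH, was at 10.73, 11.33, 11.32 and 10.92 in Fh1-/-Hif-1α-/- kidneys, 11.19, 11.00, 11.21 and 10.89 in Fh1-/- kidneys and 8.53, 8.23, 7.92 and 8.46 in control kidneys. It rose by 2.79 in each knockout group, with an adjusted p of 1.4e-06 for Fh1-/-Hif-1α-/- and of 5.3e-06 for Fh1-/- kidneys, and the knockout groups overlapped fully. Mthfd2, a mitochondrial methylenetetrahydrofolate dehydrogenase that can use NAD or NADP, was at 11.55, 11.94, 11.88 and 11.80 in Fh1-/-Hif-1α-/- kidneys, 11.61, 10.63, 11.37 and 11.48 in Fh1-/- kidneys and 8.97, 8.89, 9.14 and 10.31 in control kidneys. It rose by 2.47 (adjusted p = 0.00021) in Fh1-/-Hif-1α-/- and by 1.95 (adjusted p = 0.0028) in Fh1-/- kidneys. The groups did not overlap with control even at control replicate 4, which was again the control nearest to the knockout kidneys. A second probe of each gene was also called in both genotypes.

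The cytosolic folate enzymes went the other way. Mthfd1, whose dehydrogenase makes NADPH in the cytosol, was at 12.73, 12.83, 12.53 and 12.63 in Fh1-/-Hif-1α-/- kidneys, 12.84, 13.02, 12.82 and 12.99 in Fh1-/- kidneys and 13.27, 13.24, 13.12 and 13.25 in control kidneys. In Fh1-/-Hif-1α-/- against control kidneys it fell by 0.54 (adjusted p = 0.0019), and Aldh1l1, the cytosolic 10-formyltetrahydrofolate dehydrogenase, fell by 0.69 (adjusted p = 0.01). In Fh1-/- kidneys neither was called (-0.30 each, adjusted p = 0.074 for Mthfd1 and 0.29 for Aldh1l1). Idh3g, a subunit of the isocitrate dehydrogenase that uses NAD and so makes no NADPH, fell by 0.45 (adjusted p = 0.0053) in Fh1-/-Hif-1α-/- and by 0.42 (adjusted p = 0.021) in Fh1-/- kidneys. Nnt, the mitochondrial transhydrogenase, is partly deleted in the C57BL/6J substrain to which these mice were backcrossed, and its 3 probes averaged 7.6 to 8.3 here, near the dimmest signals. None of them was called.

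**Figure D4:**
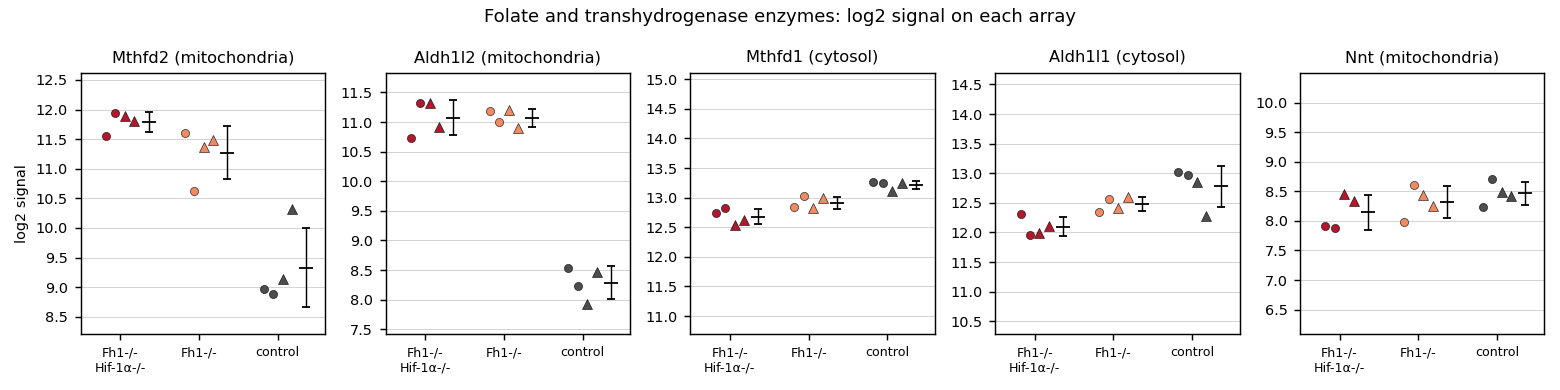
Log2 signal of the folate enzymes and the transhydrogenase on each array by genotype, with group mean and SD (n = 4), circles for replicates 1 and 2 and triangles for replicates 3 and 4. The mitochondrial enzymes Mthfd2 and Aldh1l2 are higher in both knockout groups than in control kidneys (2.47 and 2.79 in Fh1-/-Hif-1α-/-), whereas the cytosolic Mthfd1 and Aldh1l1 are lower in Fh1-/-Hif-1α-/- kidneys (-0.54 and -0.69).

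Of 10 genes that supply citrate, isocitrate and malate, 0 rose and 2 fell in Fh1-/-Hif-1α-/- against control kidneys, and limma called 0 in Fh1-/- kidneys. There 2 had an unadjusted p under 0.05, as did 21.4% of all probes. The medians were -0.36 in Fh1-/-Hif-1α-/- and -0.26 in Fh1-/- kidneys. The genes that fell were Pck1, phosphoenolpyruvate carboxykinase of gluconeogenesis (-0.70, adjusted p = 0.027), and Mdh1, cytosolic malate dehydrogenase (-0.61, adjusted p = 0.0091). Of 15 enzymes that consume NADPH, 6 rose and 3 fell in Fh1-/-Hif-1α-/- kidneys, and 4 rose and 0 fell in Fh1-/- kidneys. By size of change the first were Cbr3, a carbonyl reductase (4.81 and 3.69), Akr1b8, an aldo-keto reductase (3.15 and 3.06), and Nqo1, a quinone reductase (2.16 and 1.72), each value for Fh1-/-Hif-1α-/- and then Fh1-/- kidneys. Cbr1, another carbonyl reductase, was called in Fh1-/-Hif-1α-/- kidneys only narrowly (1.95, adjusted p = 0.048). Txnrd1, a thioredoxin reductase, rose by 1.35 (adjusted p = 6.7e-05) in Fh1-/-Hif-1α-/- and by 0.86 (adjusted p = 0.0038) in Fh1-/- kidneys.

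Among 11 measured regulators, 1 rose and 2 fell in Fh1-/-Hif-1α-/- against control kidneys, and 1 fell in Fh1-/- kidneys. The regulator that rose was Hif1a, the gene deleted in tubule cells of Fh1-/-Hif-1α-/- kidneys, on its brighter probe (0.85, limma adjusted p = 0.016). Its dimmer probe read -0.19 in the same comparison (limma adjusted p = 0.65) and was not called, so the rise depends on the probe. Sirt3, the mitochondrial deacetylase that acts on Idh2, fell by 0.61 (adjusted p = 0.0046) in Fh1-/-Hif-1α-/- and by 0.46 (adjusted p = 0.046) in Fh1-/- kidneys, and Sirt2, a cytosolic deacetylase, fell by 0.31 (adjusted p = 0.037) in Fh1-/-Hif-1α-/- kidneys. The transcript of Nrf2 itself was not called, at 0.22 in Fh1-/-Hif-1α-/- and 0.14 in Fh1-/- kidneys, nor was that of Keap1, its inhibitor, at 0.20 and 0.09. Between Fh1-/-Hif-1α-/- and Fh1-/- kidneys limma called 0 genes in each of the 5 lists, where 0.189% of all probes were called. There 1 to 3 genes a list had an unadjusted p under 0.05, as did 8.81% of all probes.

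Markers of several cell types also differed between the genotypes. Of all probes, 8.62% rose and 7.97% fell in Fh1-/-Hif-1α-/- against control kidneys, and 3.04% rose and 1.93% fell in Fh1-/- against control kidneys. Between the knockout groups 0.138% were higher in Fh1-/-Hif-1α-/- kidneys and 0.0503% lower. The 14 proximal tubule markers, of the segment that makes up most of the cortex, averaged 13.40 to 14.03 on Fh1-/-Hif-1α-/- arrays, 13.64 to 14.16 on Fh1-/- arrays and 14.48 to 14.67 on control arrays, and 9 fell in Fh1-/-Hif-1α-/- and 4 in Fh1-/- against control kidneys. Of 7 thick ascending limb markers 4 and 3 fell in these comparisons, and of 5 distal tubule markers 4 and 3. The 8 principal cell markers averaged 12.52 to 12.74 in Fh1-/-Hif-1α-/-, 11.73 to 12.03 in Fh1-/- and 11.53 to 11.70 in control kidneys. Of these, 6 rose in Fh1-/-Hif-1α-/- against control kidneys, and 2 rose and 1 fell in Fh1-/- kidneys, the one that fell being the water channel Aqp4, which was highest in control kidneys (11.81, 11.18 and 12.25). Between Fh1-/-Hif-1α-/- and Fh1-/- kidneys 2 of the 8, Avpr2 and Scnn1g, rose (1.08 and 0.81). The 11 macrophage markers averaged 11.18 to 11.45, 10.90 to 11.56 and 10.19 to 10.58 in the same order of genotypes, with 10 called higher in Fh1-/-Hif-1α-/- and 7 in Fh1-/- kidneys, and 5 of 12 fibroblast and matrix markers rose in each. The 8 markers of tubular injury averaged 11.21 to 11.32, 10.12 to 11.03 and 8.91 to 9.25, and of 8 genes that respond to tissue handling 3 rose in Fh1-/-Hif-1α-/- and 2 in Fh1-/- kidneys, with medians of 0.83 and 0.85. The 9 adipocyte markers averaged 9.81 to 11.68, 8.66 to 10.23 and 8.64 to 9.45, and in Fh1-/-Hif-1α-/- against control kidneys 4 rose and 1, Lpl, fell. The 8 proliferation markers averaged 9.18 to 9.39 in Fh1-/-Hif-1α-/-, 8.91 to 9.18 in Fh1-/- and 8.58 to 8.79 in control kidneys. Against control, 6 of them rose in Fh1-/-Hif-1α-/- and 1 in Fh1-/- kidneys. Lists of intercalated cells, podocytes, endothelium, lymphocytes, neutrophils, adrenal cortex and red cells were also examined and are not described here. The part of cell types, of proliferation and of tissue handling in the values of the NADPH supply genes was not tested.

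**Figure D5:**
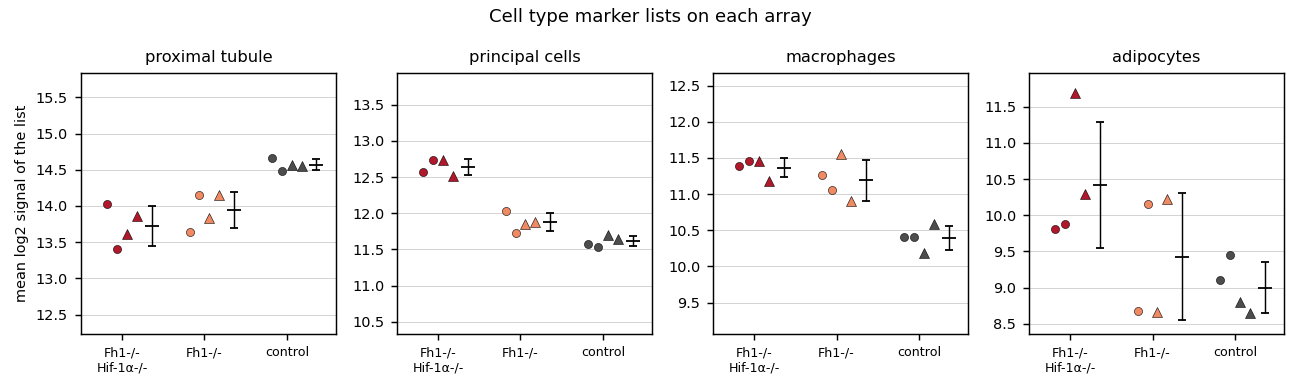
Mean log2 signal of the marker lists of proximal tubule, principal cells, macrophages and adipocytes on each array by genotype, with group mean and SD (n = 4), circles for replicates 1 and 2 and triangles for replicates 3 and 4. Proximal tubule markers are lowest in the knockout kidneys, principal cell markers are highest on all Fh1-/-Hif-1α-/- arrays (12.52 or above), and adipocyte markers vary most between arrays of a group.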

How the data were processed

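RNA of 12 kidneys was measured on Illumina MouseWG-6 v2 arrays. The methods name GenomeStudio for the extraction of signals; the authors then used GeneSpring GX to shift each array to its 75th percentile and to set a baseline, though the deposited values are not centred on one. The deposited table holds log2 signals of 23863 of 45281 probes (6.404 to 16.59); that the scale is log2 was settled from the range of its values. The deposited table of signals before normalization was not used, since its 24 columns match no sample's labels, and neither were the authors' fold changes and p-values, apart from probe IDs and symbols for G6pdx and Pgd. The platform annotation gave 1 symbol to 19906 probes, several to 9 and none to 3948.

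Arrays were shifted by at most 0.04 to a common 75th percentile. All 3 groups were fitted together in limma 3.58.1 (R 4.3.3, lmFit, eBayes with a trend). The false discovery rate (Benjamini-Hochberg) was taken over 23863 probes. The code was tested on simulated arrays with known changes. It recovered 16 of 100 changes of 0.5 and 65 of 100 changes of 1 on the log2 scale. A gene without a call may therefore still have changed. The labels do not say that replicate numbers mark litters, and replicates are separate mice; the number of arrays, 4 a group, limits the precision. Promoters and gene positions came from RefSeq (GRCm38.p6). Named were all members, up to 4 called genes per list and comparison by size, and the 3 probes most like each called member; the not-called H6pd, Nnt, Nrf2 and Keap1 and the markers Avpr2, Scnn1g, Aqp4 and Lpl were named after their values were seen. The members and lists were chosen with earlier results of these data known.

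Alternatives were other normalizations (none, equal medians, quantile), another variance model, array weights, an ordinary test, fits of 2 groups only, a replicate block, the array set as a term or each set alone, Xist as a covariate, bright probes only, another probe of a gene, stricter thresholds and leaving out each array.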

Additional observations from a re-analysis of the deposited data

Results flagged for a closer look

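Of 96 groups of 4 arrays examined for the member probes and the named genes of the lists (the other list genes were not examined), 5 held 1 array whose gap to its nearest neighbour, relative to the range of the group, was above Dixon's 95% critical value. Chance alone gives about 1 such group in 20. In the Fh1-/- group, replicate 3 stood apart for Rpia at 11.18. Control replicate 4, the only control with high Xist, stood apart for the brightest Tkt probe at 13.55 and for Cbr1 at 14.27. Control replicate 2 stood apart for the second Tkt probe at 8.14. In the Fh1-/-Hif-1α-/- group, replicate 1 stood apart for Hif1a at 10.19. Without control replicate 4 the differences of Tkt and Pgls from control in Fh1-/-Hif-1α-/- kidneys were 0.91 and 0.63.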

How the results depend on the processing

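Of 246 recomputed counts and medians, 217 kept within their limits and 29 moved. Tkt kept its call in Fh1-/-Hif-1α-/- against control kidneys under all alternatives other than replicates 3 and 4 alone and a minimum of 2-fold.

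Against 0 called members in Fh1-/- against control kidneys, array weights gave 2 (Taldo1 and Me1, lower), another probe 1 (Tkt), and leaving out an array 0 to 1, the 1 being Taldo1 without control replicate 4. Against 3 in Fh1-/-Hif-1α-/- against control kidneys, an ordinary test and an adjusted p under 0.01 gave 1, replicates 3 and 4 alone or a minimum of 2-fold 0, and leaving out an array 1 to 3, with 1 remaining without Fh1-/-Hif-1α-/- replicate 1, 3 or 4 or control replicate 1 or 2. Against 9 list genes in Fh1-/- against control kidneys, array weights gave 19, the array set as a term 16, bright probes 14, replicates 1 and 2 alone 5, replicates 3 and 4 alone 2, and a minimum of 2-fold 5. Against 23 in Fh1-/-Hif-1α-/- against control kidneys, replicates 3 and 4 alone gave 6, an adjusted p under 0.01 gave 12 and a minimum of 2-fold 8.

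The median of the members moved in Fh1-/- against control kidneys to -0.011 with quantile normalization and -0.24 in replicates 3 and 4 alone. In Fh1-/-Hif-1α-/- against control kidneys it was -0.087 in replicates 1 and 2 alone, 0.037 in replicates 3 and 4 alone, and -0.19 to -0.069 with an array left out. Between Fh1-/-Hif-1α-/- and Fh1-/- kidneys it was 0.14 in replicates 3 and 4 alone and 0.024 to 0.14 with an array left out.

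Directions turned for differences that were not called, and for Hk1 and Hif1a on another probe (-0.061 and -0.19 in Fh1-/-Hif-1α-/- against control). In Fh1-/- against control kidneys these were Pgls (-0.22 in replicates 3 and 4, -0.11 on another probe, -0.058 to 0.22 with an array left out), the dimmer Pgls probe (0.024 with array weights), Rpia (-0.015 to 0.16 with an array left out) and Rpe (-0.068 with array weights, -0.16 in replicates 1 and 2, -0.082 to 0.13 with an array left out). In Fh1-/-Hif-1α-/- against control kidneys they were the dimmer Pgls probe (-0.021 to 0.22 with an array left out), Rpia (0.014 in replicates 3 and 4, -0.14 to 0.015 with an array left out), Taldo1 (-0.014 with array weights, -0.012 in replicates 1 and 2, -0.0026 to 0.10 with an array left out), Me1 (0.060 in replicates 3 and 4) and Idh1 (0.013 in replicates 1 and 2). Between Fh1-/-Hif-1α-/- and Fh1-/- kidneys Idh1 turned to 0.19 in replicates 1 and 2 and was -0.23 to 0.0054 with an array left out. The cause was not tested.

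Deviations of same-numbered arrays correlated between -0.309 and 0.499, and those of differently numbered arrays between -0.422 and 0.57. These ranges overlap, so they do not show whether the numbers pair samples. With the replicate number as a block, 2 members (Tkt and Idh2) were called in Fh1-/-Hif-1α-/- against control kidneys, Pgls having an adjusted p of 0.057, and 0 in the other comparisons, with 22 list genes called in Fh1-/-Hif-1α-/- and 10 in Fh1-/- against control kidneys.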
